A study of Mus musculus with 16 samples.

Results

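RNA recovered with Argonaute 2 (Ago2) was compared with polyadenylated (polyA) RNA in mouse juxtaglomerular (JG) cells that had received a control transfection. The comparison used 8 of the 16 libraries of the series, 4 of Ago2 immunoprecipitates (Ago2-IP control 1 to 4) and 4 of polyA RNA (polyA control 1 to 4), chosen by their labels alone. The cells were cultured JG cells engineered to carry yellow fluorescent protein (YFP) under the renin promoter, and every group of the study shares this reporter. The cells of all 8 libraries received a non-mammalian microRNA precursor and were harvested 48 h later. Cells were taken up directly in Trizol for polyA RNA, or trypsinized and lysed for Ago2-IP. The study calls the libraries of a group biological replicates, and no source used here ties same-numbered libraries of both kinds to one culture, so p-values measure the spread between these libraries. The other 8 libraries, from cells given the miR-106b precursor, served only as a second view of the same contrast. Whether the replicates share one source of cells is not given in the sources used here.

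Ago2 is the protein that holds a mature microRNA (miRNA) and carries it to partly complementary messenger RNAs, usually in the 3′ untranslated region (3′UTR). Pairing rests mostly on the seed, bases 2 to 8 of the miRNA, and leads to repression or decay of the target. RNA that comes down with Ago2 therefore holds miRNA targets together with whatever else the immunoprecipitate contains, whereas oligo(dT) selection takes RNA with a polyA tail. JG cells are modified smooth muscle cells of the kidney arterioles that make renin, the enzyme that starts the angiotensin cascade.

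The Ago2-IP libraries held 3501909 to 4616424 counted reads and the polyA libraries 5692958 to 9459585. With a level of at least 1 CPM (CPM, reads of a gene scaled to a common library size) in at least 3 of the 4 libraries of either kind, 14478 of 46078 genes were tested with edgeR's quasi-likelihood test. At an adjusted p of 0.05, 10864 genes (75.0%) differed, 5250 (36.3%) being higher and 5614 (38.8%) lower in Ago2-IP RNA. All 4 libraries of one kind lay above all 4 of the other in 68.6% of the tested genes, 33.1% with Ago2-IP above and 35.5% with polyA above. Counts of genes below are to be read against these shares. The fold changes depend on how the kinds are put on one scale. Scaled to library size alone, the median gene moved from -0.07 to -0.37 on the log2 scale and 4251 genes were called higher and 7127 lower, so fold changes below are relative to the TMM scaling, under which the median gene lay at -0.07.

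Markers of the cell type were set beside the label first. Ren1, which encodes renin, had 0 reads in each of the 8 libraries, where a count of 0 allows up to 0.317 to 0.857 CPM, and Akr1b7, another gene of renin-producing cells, had 0 to 2 reads. Smooth muscle genes of JG cells were present, Acta2 at 282 ± 10.1 CPM in Ago2-IP and 685 ± 78.1 CPM in polyA RNA (SD, n = 4). Genes of working heart muscle were abundant in both kinds of RNA. The 25 listed genes of the heart muscle sarcomere together took 9.95% ± 0.284 of the reads in Ago2-IP and 2.53% ± 0.406 in polyA RNA (SD, n = 4). Reads of renin were thus not detected and reads of heart muscle genes were, which goes against the label, and JG cells is used here only as the name the submitters gave the cultures.

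Within the Ago2-IP group, libraries 3 and 4 stood apart from 1 and 2 in small structured RNA. Small nuclear RNA took 0.0188% and 0.0195% of the reads in libraries 1 and 2, 0.217% in library 3 and 0.485% in library 4. Small nucleolar RNA took 0.0055%, 0.0066%, 0.0605% and 0.337% in the same order, against 0.0159% to 0.0173% in the polyA libraries. For classes and genes that differed between these pairs of libraries, values for Ago2-IP libraries 1 and 2 alone are given beside several of the results, a choice made after these shares were seen. With those 2 Ago2-IP libraries against the 4 polyA libraries 10096 genes were called.

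Several miRNAs lie inside genes at the ends of this comparison. As Ago2 holds mature miRNAs, their mature sequences are shown. They are from RefSeq (GRCm38.p6), 5′ to 3′, with the seed in capitals.
miR-208a-3p: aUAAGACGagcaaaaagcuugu
miR-499-5p: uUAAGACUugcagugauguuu
miR-126a-3p: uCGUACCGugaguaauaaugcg
miR-106b-5p: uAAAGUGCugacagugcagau
miR-196b-5p: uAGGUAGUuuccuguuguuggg
miR-21a-5p: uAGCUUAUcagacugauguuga
miR-208a lies at chr14:54949072-54949093 (minus strand) within Myh6, the heart muscle myosin. The locus of miR-499 falls within Myh7b, a further muscle myosin, and that of miR-126a within Egfl7, a gene of blood vessel lining. These 3 hosts were higher in Ago2-IP RNA, by 2.28 ± 0.09 for Myh6, 2.21 ± 0.10 for Myh7b and 2.25 ± 0.09 for Egfl7 (log2 fold change ± SE). SE here is the absolute log2 fold change divided by the square root of the F statistic of the test. The seeds of these muscle miRNAs are UAAGACG for miR-208a and UAAGACU for miR-499. miR-106b, the precursor of which was transfected in the other arm of the study, lies at chr5:138165787-138165807 (minus strand) within Mcm7, a subunit of the replication helicase. miR-196b lies within the Hoxa9 locus as the count table draws it, and miR-21a within Vmp1, a gene of autophagy. These hosts were lower in Ago2-IP RNA, Mcm7 by -2.81 ± 0.18, Hoxa9 by -5.27 ± 0.32 and Vmp1 by -2.38 ± 0.09. Host genes here are messenger RNA, and the libraries were not made to count mature miRNA.

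The distribution of fold changes was lopsided. Of 7971 genes that averaged 20 CPM or more in either kind, 631 had a log2 fold change between 2.1 and 2.4, but only 74 lay above 2.4 and 13 above 3. On the other side the tail was long, with 317 genes below -2.4, 176 below -3 and 67 below -4. The 631 genes made a narrow peak, though most of the 5250 genes called higher lay outside it.

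**Figure D1:**
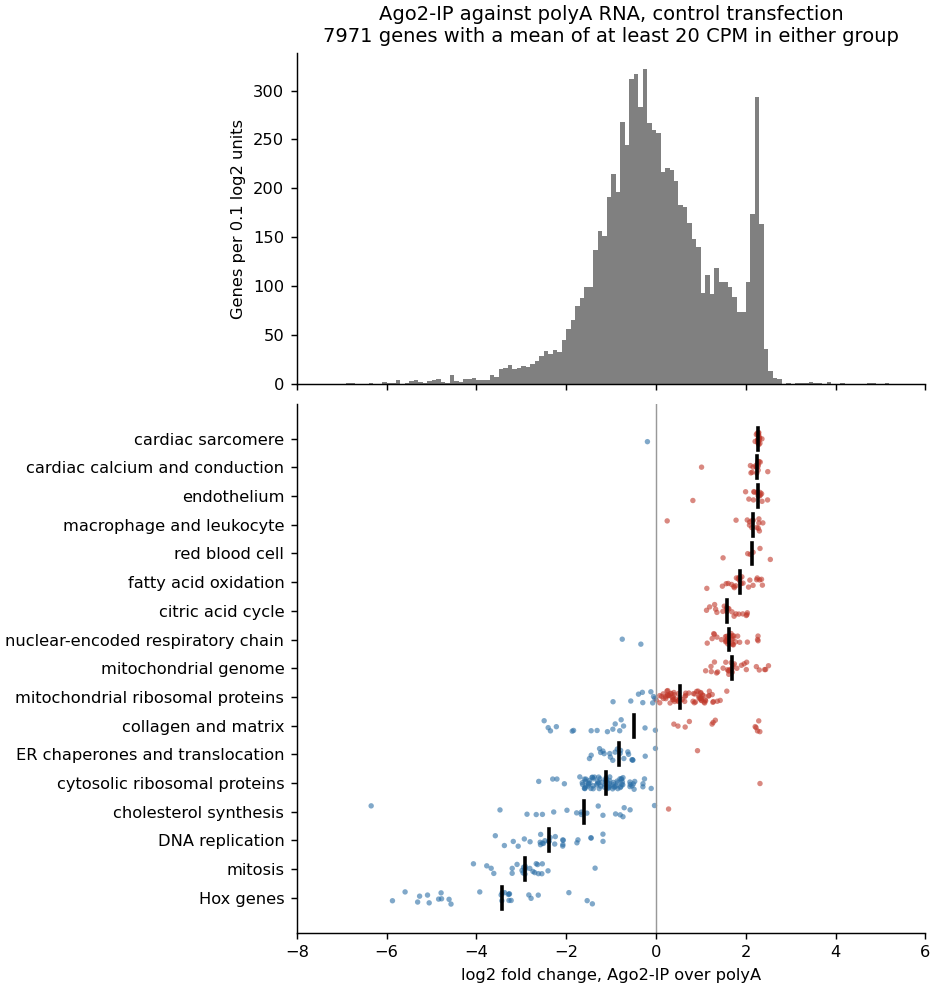
Upper panel, number of genes per 0.1 units of log2 fold change (Ago2-IP over polyA, control transfection) among the 7971 genes that averaged 20 CPM or more in either kind. Lower panel, 1 point per tested gene of each list on the same axis, red above and blue below 0, with the list median as a black bar. The 24 sarcomere genes sit at a median of 2.28 under the narrow peak of the upper panel, and the 27 Hox genes reach to -5.87.

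Heart muscle genes lay within the narrow peak. Of 24 tested sarcomere genes, 23 were higher in Ago2-IP RNA and none was lower, with a median of 2.28 and an interquartile range of only 2.27 to 2.29, where the median of all tested genes was -0.07. The summed level of the 25 listed genes was between 105790 and 114470 CPM in Ago2-IP and between 19108 and 27050 CPM in polyA RNA. Myh6 (ENSMUSG00000040752, chr14:54941981-54966927, minus strand) stood at 44388, 45496, 43808 and 41847 CPM in the Ago2-IP libraries and at 9693, 7570, 8219 and 10735 CPM in the polyA libraries. All Ago2-IP libraries lay far above all polyA libraries. The log2 fold change was 2.28 ± 0.09 (SE), with an adjusted p of 3.4e-15 by edgeR's quasi-likelihood test. Actc1, the heart actin, changed by 2.27 ± 0.09, Tnnt2, which anchors troponin to the thin filament, by 2.28 ± 0.09, and Mybpc3, which binds myosin in the thick filament, by 2.28 ± 0.08. Des, the muscle intermediate filament, and Mb, the oxygen-binding myoglobin, had 2.28 ± 0.08 as well. The exception was Myl4, a light chain of atrial and fetal muscle, at -0.19, which was not called.

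The polyA libraries differed among themselves in the same genes. As a share of the mean Ago2-IP level, scaled to library size, the 23 sarcomere genes of at least 20 CPM stood at a median of 27.2% in polyA library 1, 21.2% in 2, 22.8% in 3 and 30.3% in 4. Within library 2 the interquartile range of these genes was 21% to 21.4%, so that the genes kept nearly fixed proportions to each other. Endothelial genes (14 of at least 20 CPM) stood at 27.3%, 21.4%, 22.7% and 31.3% and macrophage genes (10) at 29%, 21.2%, 24.6% and 33.6%, the same order of libraries. Mitosis genes ran the other way, at 927%, 1045%, 988% and 760% of their Ago2-IP level in polyA libraries 1 to 4. In bulk RNA fewer cells of a type and less RNA of that type per cell cannot be told apart.

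Genes that move calcium and current in heart muscle followed. All 17 tested were higher, with a median of 2.25. Atp2a2, the pump that returns calcium to the sarcoplasmic reticulum, changed by 2.14 ± 0.08, Ryr2, its release channel, by 2.27 ± 0.09, Jph2, which holds that reticulum near the surface membrane, by 2.27 ± 0.09 and Hrc, a calcium binder of its lumen, by 2.32 ± 0.09. The smallest change was that of Asph at 1.01. The 3 natriuretic peptide genes were higher as well, Nppa by 2.21 ± 0.12, Nppb by 2.32 ± 0.09 and Corin, which cuts the precursor of the atrial peptide, by 2.12 ± 0.09.

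Of 14 tested cardiac transcription factors, 12 were higher, with a median of 2.22. Nkx2-5 stood at 267 ± 12.3 CPM in Ago2-IP and 56.5 ± 9.18 CPM in polyA RNA and Gata4 at 293 ± 6.53 and 58.4 ± 9.13 CPM (SD, n = 4). Both are early regulators of the heart, and both changed close to the sarcomere genes, by 2.25 ± 0.09 and 2.34 ± 0.09. Mef2d, which many tissues use, changed by 0.97 ± 0.06. Tbx18, a factor of the outer heart layer and of mural cells, went the other way at -1.99 ± 0.22, with 1.89 to 4.70 CPM in Ago2-IP and 13.1 to 16 CPM in polyA RNA. Genes of fast skeletal muscle were mostly too low to test, with 3 of 15 listed genes tested.

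Markers of endothelium, leukocytes and red cells were higher by similar amounts. All 15 tested endothelial genes were higher, with a median of 2.26, and their summed level ran from 2738 to 2960 CPM in Ago2-IP and from 569 to 785 CPM in polyA RNA. Cdh5, the adhesion protein of vessel lining, stood at 477, 516, 493 and 473 CPM in Ago2-IP and at 110, 87.4, 87.6 and 124 CPM in polyA RNA. The groups did not overlap, and the change was 2.26 ± 0.09. Eng, a coreceptor for TGF-beta, changed by 2.28 ± 0.09 and the receptor Tie1 by 2.32 ± 0.13, whereas Flt1, a VEGF receptor, changed by only 0.82 ± 0.06 and kept 115 ± 5.64 CPM in polyA RNA. Of 14 macrophage and leukocyte genes 13 were higher, with a median of 2.15. The complement genes C1qc and C1qb had 2.28 ± 0.11 and 2.29 ± 0.10, the lysozyme gene Lyz2 had 2.29 ± 0.10, and Cd14 at 0.25 was not called. The heavy chain gene Ighm of B cells, at 13.1 ± 1.87 CPM in Ago2-IP and 2.38 ± 0.461 CPM in polyA RNA (SD, n = 4), changed by 2.44 ± 0.22. All 6 tested red cell genes were higher, among them the globins Hbb-bs (2.32 ± 0.11) and Hba-a1 (2.16 ± 0.14), for which reads of near-identical copies cannot be assigned with certainty. How far RNA of such cells took part in either kind of library was not tested.

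Fibroblast and mural genes were split. Of 15 fibroblast genes, 12 were higher and 2 lower. Dcn, a small matrix proteoglycan, changed by 2.31 ± 0.10 and Col1a2 by 2.29 ± 0.08, but Col1a1, the partner chain of the same collagen, by only 0.49 ± 0.06. Col1a1 stood at 9514 ± 118 CPM in Ago2-IP and 6784 ± 416 CPM in polyA RNA, and Col1a2 at 3412 ± 171 and 699 ± 102 CPM (SD, n = 4). Fn1, fibronectin, fell from 9260, 10350, 9797 and 9244 CPM in polyA RNA to 1822, 1818, 1850 and 1818 CPM in Ago2-IP RNA, a change of -2.40 ± 0.06 with an adjusted p of 4.8e-19 by edgeR's quasi-likelihood test. S100a4, a calcium-binding protein of motile cells, had 3.80 ± 1.12 CPM in Ago2-IP and 93.7 ± 11.6 CPM in polyA RNA. Among 28 genes of collagen and matrix 12 were higher and 15 lower, with a median of -0.48. Of 15 smooth muscle and mural genes 11 were higher, with Tagln (-2.18 ± 0.08) and Acta2 (-1.28 ± 0.07), both of the contractile cytoskeleton, the 2 that were lower.

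**Figure D2:**
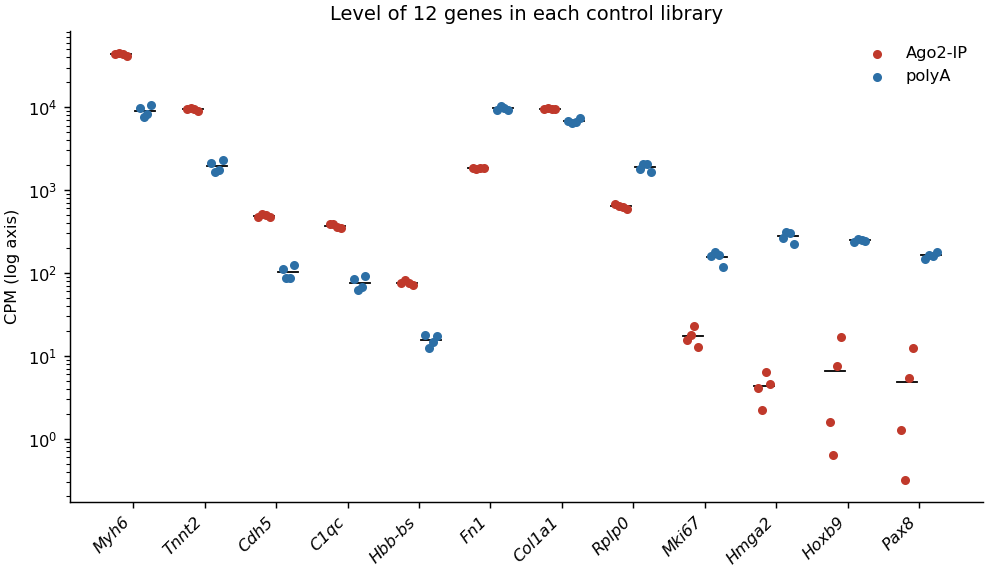
CPM (log axis) of 12 genes in the 4 Ago2-IP (red) and 4 polyA (blue) control libraries, libraries 1 to 4 from left to right in each cluster, with the mean as a black line. Myh6, Tnnt2, Cdh5, C1qc and Hbb-bs keep nearly the same distance between the kinds, Fn1, Rplp0 and Mki67 are higher in polyA RNA, and Hoxb9 and Pax8 spread widely over the Ago2-IP libraries, from 0.627 to 16.8 and from 0.313 to 12.5 CPM.

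Genes of fatty acid oxidation, the citric acid cycle and the respiratory chain were mostly higher, and those of glycolysis were split. All 24 tested genes of fatty acid oxidation were higher, with a median of 1.87. Lpl, the lipase that frees fatty acids from lipoproteins, changed by 2.25 ± 0.08, Fabp3, the fatty acid carrier of muscle, by 2.24 ± 0.09 and Hadha, of the mitochondrial trifunctional enzyme, by 1.79 ± 0.07. All 20 genes of the citric acid cycle were higher, with a median of 1.59, among them Ogdh, of the oxoglutarate dehydrogenase complex (2.02 ± 0.07). For the nuclear-encoded respiratory chain the count was 30 of 32, and the 2 lower genes were Cox6a1 (-0.75 ± 0.06) and Cox8a (-0.34 ± 0.07). These encode the general forms of cytochrome oxidase subunits. Their muscle counterparts Cox6a2 and Cox8b were at 2.26 and 2.27. In glycolysis 13 of 20 genes were higher and 5 lower. Gapdh, used in all tissues, was higher by 0.74 ± 0.06. The muscle enolase Eno3 changed by 2.14 ± 0.08 and the general enolase Eno1 by -1.08 ± 0.07, and Pgam2, the muscle phosphoglycerate mutase, stood at 2.25 where Pgam1 stood at -1.74 ± 0.08. These pairs were chosen after their values were seen, and muscle against general forms was not tested over the list. Pkm, pyruvate kinase, changed by -0.28 ± 0.06.

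Transcripts of the mitochondrial genome were higher for 27 of 28 tested genes, with a median of 1.68. mt-Co1, a subunit of cytochrome oxidase, stood at 3613, 3526, 3533 and 3438 CPM in Ago2-IP and at 1137, 990, 1003 and 1229 CPM in polyA RNA. The groups were well separated, and the change of 1.69 ± 0.07 was smaller than that of the sarcomere genes. mt-Rnr2, the large ribosomal RNA of the organelle, changed by 1.35 ± 0.07. Mitochondrial ribosomal proteins, encoded in the nucleus, moved less, with 57 of 76 higher, 4 lower and a median of 0.52.

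Cytosolic ribosomal proteins went the other way. Of 81 tested, 78 were lower in Ago2-IP RNA, with a median of -1.11. Rplp0, of the ribosomal stalk, stood at 672, 648, 628 and 591 CPM in Ago2-IP and at 1808, 2055, 2059 and 1664 CPM in polyA RNA, a change of -1.58 ± 0.07. Rpl3l, the muscle form of Rpl3, was the 1 member called higher, by 2.32 ± 0.09, while Rpl3 itself stood at -2.21. Eef2, the elongation factor that moves the ribosome, changed by -1.06 ± 0.06 and Pabpc1, the protein that coats the polyA tail, by -2.38 ± 0.07. Of 189 tested processed pseudogenes 84 were lower and 23 higher, with a median of -1.04. Many derive from ribosomal protein genes, and reads of gene and copy cannot be assigned with certainty.

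Genes of dividing cells were lower without exception in 2 lists. All 24 mitosis genes were lower, with a median of -2.92. Mki67, the protein that coats mitotic chromosomes, stood at 15.4, 17.6, 22.6 and 12.7 CPM in Ago2-IP and at 160, 179, 166 and 118 CPM in polyA RNA. The groups were far apart, and the change was -3.21 ± 0.18. Top2a, which untangles DNA, changed by -3.20 ± 0.18, Foxm1, a transcription factor of late cell cycle, by -2.95 ± 0.12 and Cdc20, which starts anaphase, by -3.10 ± 0.13. All 27 genes of DNA replication were lower too, with a median of -2.38. They ran from Prim1, the primase, at -3.58 to Pold1, of the replicating polymerase, at -1.18 ± 0.10. Mcm7 had 26.0 ± 6.90 CPM in Ago2-IP and 179 ± 24.7 CPM in polyA RNA (SD, n = 4). Clustered histone genes, most of whose messages lack a polyA tail, were lower for 16 of 24 (9 without Ago2-IP library 1) and higher for 4, with Hist1h2bc at 1.76 ± 0.17 and Hist1h1c at 1.40 ± 0.09. Groups did not overlap for 10 histone genes lower and 3 higher in Ago2-IP RNA. All listed histone genes together took 0.0123% of the reads in Ago2-IP and 0.0121% in polyA RNA.

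Hox genes and some kidney genes were far lower. Of 27 tested Hox genes, which set position along the body axis, 26 were lower, with a median of -3.44. Hoxb9 (chr11:96271457-96276595, plus strand) stood at 1.58, 0.627, 7.53 and 16.8 CPM in Ago2-IP and at 239, 260, 252 and 239 CPM in polyA RNA. The polyA libraries were close together, and Ago2-IP libraries 3 and 4 held more than 1 and 2. The change was -5.09 with all libraries and -7.79 with Ago2-IP libraries 1 and 2 alone. Over Ago2-IP libraries 1 and 2 alone the median of the Hox genes was -5.57 and all 27 were lower. Foxd1, a factor of kidney stroma from which JG cells arise, had 0.315, 0, 4.22 and 6.71 CPM in Ago2-IP and 45.4 to 50.9 CPM in polyA RNA, a change of -3.95 that moved to -8.07 with Ago2-IP libraries 1 and 2 alone, where 1 read was left and the value depends on the prior count. Of 6 tested genes of kidney epithelium 4 were lower. Pax8, a regulator of kidney tubules, changed by -4.92 ± 0.48 and Cdh16, a kidney cadherin, by -5.48 ± 0.48, again with more in Ago2-IP libraries 3 and 4. With libraries 1 and 2 alone these values were -7.65 and -6.69. Podxl, which podocytes share with vessel lining, was higher by 2.12 ± 0.09, and the water channel Aqp1 was not called at 0.04 ± 0.06, a value that is negative when libraries are scaled to their size alone. For the kidney list without Ago2-IP libraries 3 and 4, the median moved from -3.74 to -5.40.

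**Figure D3:**
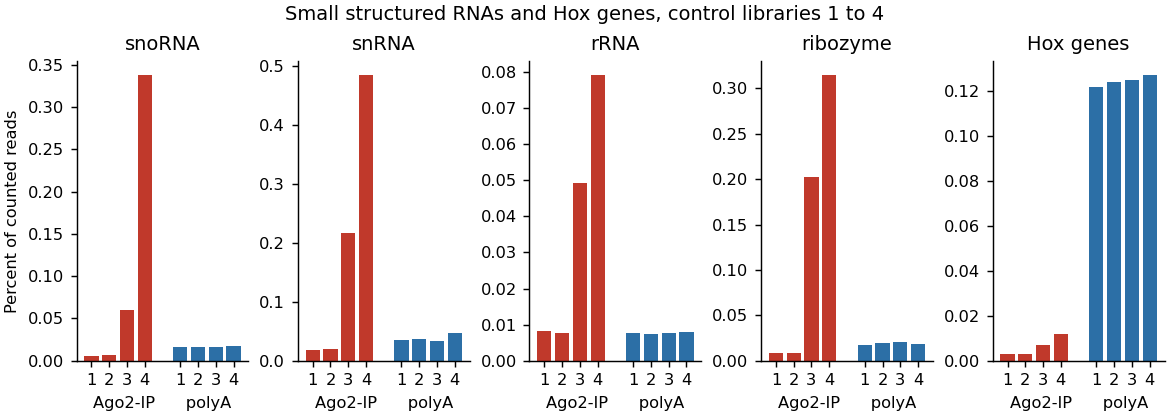
Percent of counted reads on 4 classes of small structured RNA and on the Hox genes in control libraries 1 to 4 of Ago2-IP (red) and polyA RNA (blue). Ago2-IP libraries 3 and 4 exceed 1 and 2 in every panel, for Hox genes at 0.00701% and 0.0121% against 0.00320% and 0.00279%, while the polyA libraries are level at 0.122% to 0.127%.

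The largest falls among called genes of at least 20 CPM whose groups did not overlap, as far as they are reported here, were of genes nearly absent from Ago2-IP RNA. Il1rl1, the receptor of interleukin-33, stood at 2.21, 1.88, 3.62 and 4.56 CPM in Ago2-IP and at 331, 377, 349 and 281 CPM in polyA RNA, a change of -6.71 ± 0.15. No Ago2-IP library came near a polyA library. Met, the receptor of hepatocyte growth factor, changed by -6.04 ± 0.18 and Hmga2, a chromatin protein of growing and transformed cells, by -6.00 ± 0.18. Hmga2 stood at 4.10, 2.19, 6.33 and 4.56 CPM in Ago2-IP and at 266, 316, 303 and 226 CPM in polyA RNA. Others were Fam150a (-6.86 ± 0.35), a ligand of the ALK receptor, Adgrg6 (-5.83 ± 0.27), an adhesion receptor, Pkhd1 (-5.76 ± 0.27), of the kidney tubule cilium, and Gm53 (-5.74 ± 0.21). Fam150a had 0 reads in 2 Ago2-IP libraries and Pkhd1 in 1, and their fitted values depend on the prior count. With Ago2-IP libraries 1 and 2 alone, in each of which they had at most 2 reads, Adgrg6 (-7.09), Pkhd1 (-7.51) and Gm53 (-7.45) were lower still, at values that depend on the prior count, and Fam150a, at 0 reads in both, gave no usable fold. Il1rl1 moved to -7.34 in that fit.

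The 10 largest rises, among called genes of at least 20 CPM whose groups did not overlap, were of a different kind. Of these, 4 were short RNAs, the 5S ribosomal RNA copies n-R5s2, n-R5s151 and n-R5s56 and the vault RNA Vaultrc5, and all 4 were higher in Ago2-IP libraries 3 and 4 than in 1 and 2. The authors removed ribosomal RNA reads before alignment, so the 5S counts are of reads left after that step. n-R5s2 stood at 13.6, 13.2, 76.8 and 229 CPM in Ago2-IP and at 10.4 to 12.5 CPM in polyA RNA, which gave 2.94 ± 1.0 with all libraries and 0.26, not called, with Ago2-IP libraries 1 and 2 alone. With those libraries alone n-R5s56 moved from 2.61 to 0.48 and was not called, while n-R5s151 (from 2.73 to 0.72) and Vaultrc5 (from 2.77 to 1.12) were still called higher, the former at an adjusted p of 0.048 by edgeR's quasi-likelihood test. The calls of all 3 5S copies were also lost without Ago2-IP library 3, without Ago2-IP library 4 and without each of at least 2 polyA libraries, whereas that of Vaultrc5 was not lost without any 1 library. The other 6 lay just above the narrow peak. They were Tmem82 (2.72 ± 0.16), the amino acid carrier Slc36a2 (2.69 ± 0.18), Itih5 (2.67 ± 0.18), Plcl2 (2.64 ± 0.20), Colq (2.63 ± 0.18), which anchors acetylcholinesterase, and the antibody receptor Fcgr2b (2.59 ± 0.19). Tmem82 had 41.6, 42.0, 37.1 and 33.3 CPM in Ago2-IP and 5.59, 4.59, 5.78 and 7.75 CPM in polyA RNA, and its 2 groups did not overlap.

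Classes of short RNA depended on which Ago2-IP libraries were read. Of 27 tested small nucleolar RNAs 10 were called higher and 1 lower with all libraries, and 0 higher and 13 lower with Ago2-IP libraries 1 and 2 alone. Their median moved from 2.80 to -1.13. Snora57 stood at 3.15, 1.88, 89.2 and 517 CPM in Ago2-IP and at 5.37 to 7.11 CPM in polyA RNA. Rpph1, the RNA of ribonuclease P, stood at 69.4, 78.7, 1903 and 2929 CPM in Ago2-IP and at 113 to 118 CPM in polyA RNA, which was not called (3.44 ± 1.31). Rmrp, the related RNA of ribonuclease MRP, ran alike at 29.6, 20.1, 346 and 549 CPM. With Ago2-IP libraries 1 and 2 alone both were called lower, Rpph1 by -0.63 and Rmrp by -1.11. The small nuclear RNA locus Gm22513 had 87.9, 97.2, 1592 and 3577 CPM and was likewise not called with all libraries and called lower, by -0.58, with those 2. Mitochondrial transfer RNAs did not share this pattern, with all 15 tested called higher with all libraries and 11 with libraries 1 and 2 alone.

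Long noncoding RNAs showed no common direction. Of 254 tested lincRNAs 73 were higher and 53 lower, with a median of 0.01. With Ago2-IP libraries 1 and 2 alone, 52 were higher and 57 lower, with a median of -0.11. Malat1, of nuclear speckles, stood at 1689, 1702, 1944 and 3832 CPM in Ago2-IP and at 1830 to 1957 CPM in polyA RNA and was not called. Neat1, the scaffold of paraspeckles, changed by 0.59 ± 0.06 and Meg3, an imprinted RNA, by 2.14 ± 0.13. Host genes of small nucleolar RNAs were mostly lower, with 8 of 11 Snhg genes lower and 1 higher, and Gas5, a further host, changed by -2.06 ± 0.12. Gm10800, a repeat-like locus, stood at 1680, 252, 1835 and 12363 CPM in Ago2-IP and 2208 to 3063 CPM in polyA RNA, and was not called.

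Genes of the miRNA machinery were themselves mostly lower as RNA. Of 16 Argonautes and partners 10 were lower and 3 higher, with a median of -0.57. Ago2 stood at 151, 133, 145 and 140 CPM in Ago2-IP and at 206, 213, 206 and 209 CPM in polyA RNA, a change of -0.55 ± 0.06. Ago4 was higher by 1.48 ± 0.18 and Tnrc6c, a GW182 protein, by 0.37 ± 0.07, a call that was lost when libraries were scaled to their size alone (0.07). These values concern the messages of the proteins and not the protein that was precipitated.

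Genes of the secretory pathway and of cholesterol synthesis were lower. Of 22 chaperones and translocation factors of the endoplasmic reticulum (ER) 20 were lower, with a median of -0.83. Calr changed by -0.79 ± 0.06 and P4hb, a disulfide isomerase, by -1.23 ± 0.06, whereas Dnajb9, a co-chaperone, was higher by 0.92 ± 0.25. Of 20 genes of cholesterol synthesis and its control 18 were lower and none higher, with a median of -1.60.

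Response genes went both ways. Of 20 interferon-stimulated genes 18 were higher and none lower, with a median of 1.86, among them Irf7 (2.11 ± 0.11), the factor that amplifies the interferon response, and Bst2 (1.93 ± 0.10), which tethers viruses. Of 22 immediate early genes 6 were higher and 13 lower. Fos changed by 0.97 ± 0.20 and Zfp36, which marks messages for decay, by 1.22 ± 0.10, while Fosl2 changed by -1.31 ± 0.08 and Fosl1 stood at -4.54. The 264 tested Zfp genes, most of them zinc finger transcription factors, had 49 higher and 89 lower, with a median of -0.21, and with Zfp106 (1.53 ± 0.06) and Zfp651 (1.58 ± 0.07) among the higher and Zfp36l2 (-1.27 ± 0.07) among the lower.

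**Figure D4:**
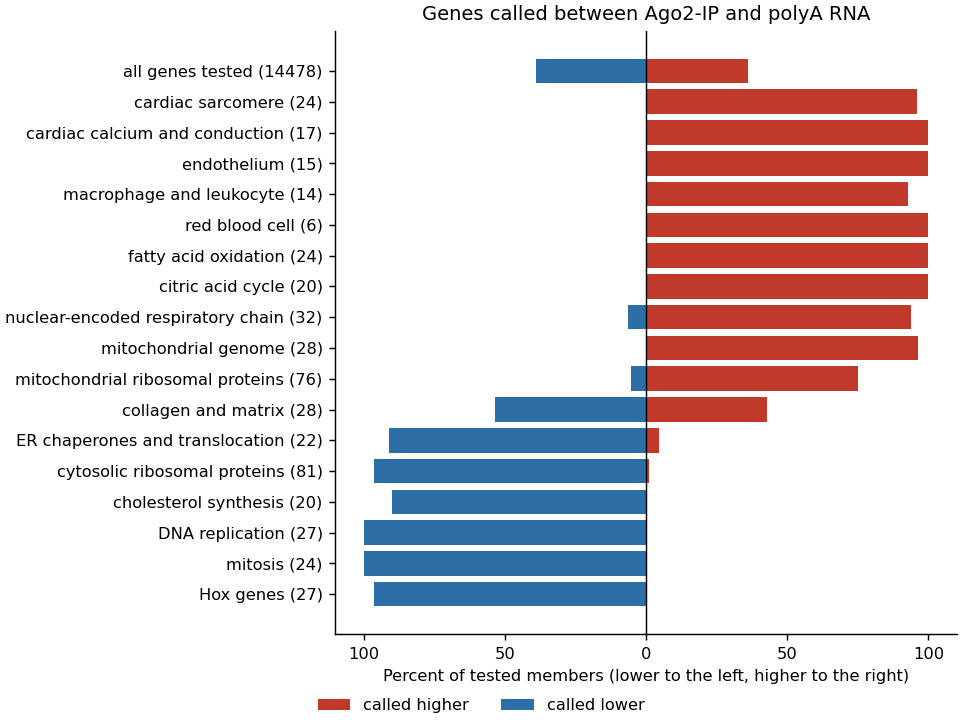
Percent of the tested genes of each list called higher (red, to the right) or lower (blue, to the left) in Ago2-IP than in polyA RNA at an adjusted p of 0.05, with the number tested in brackets. The top bar gives all 14478 genes, of which 36.3% were higher and 38.8% lower, and lists run from all 24 genes of fatty acid oxidation higher to all 27 genes of DNA replication lower.

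Genes tied to renin control fell on both sides. Of 10 tested genes of JG cells and the renin system 7 were higher and 3 lower. Ace, which makes angiotensin II, stood at 198 ± 11.2 CPM in Ago2-IP and 43.0 ± 9.26 CPM in polyA RNA, and Adrb1, the beta adrenergic receptor, at 62.1 ± 3.45 and 13.3 ± 1.69 CPM (SD, n = 4). Agt, angiotensinogen, was lower by -1.50 ± 0.23 and Atp6ap2, the prorenin receptor, by -1.23 ± 0.17. Prkar1a, a subunit of protein kinase A, changed by 0.37 ± 0.06, a call lost when libraries were scaled to their size alone (0.07), and Gnas, the stimulatory G protein, by 0.18 ± 0.07, a call that was lost in several other fits and a value that turned to -0.12 when libraries were scaled to their size alone. The coactivator genes Ppargc1a and Ppargc1b changed by 2.25 ± 0.16 and 2.22 ± 0.10, the nuclear receptor Ppara by 2.32 ± 0.12 and Esrra by 1.60 ± 0.07. Pde3b and Pde10a, which break down cyclic nucleotides, were lower by -2.44 ± 0.22 and -1.98 ± 0.17. E2f1, a driver of entry into S phase, stood at 9.77, 12.2, 14.2 and 14.4 CPM in Ago2-IP and at 56.5, 64.6, 50.5 and 40.8 CPM in polyA RNA, a change of -2.07 ± 0.15. Creb1, which binds cyclic AMP response elements, changed by -0.69 ± 0.16 with all libraries and by -0.33, not called, with Ago2-IP libraries 1 and 2 alone. Mrpl32 was not called at 0.26 ± 0.22, but was called at 0.50 without polyA library 2.

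Because Ago2 binds through miRNA seeds, seed matches in the longest annotated 3′UTR (GENCODE M21) of 12964 tested protein-coding genes were counted for 14 miRNAs, as sequence and not as bound sites. A match was the reverse complement of bases 2 to 8. Shares are given for genes called higher, lower and not called. For let-7a-5p (site CTACCTC) they were 12.2%, 12% and 13%, and for miR-21a-5p (site ATAAGCT) 7.83%, 8.63% and 9.02%. For miR-106b-5p (site GCACTTT) they were 14.2%, 15.7% and 16.4%. The share among higher genes was below that among lower genes for miR-30a-5p (14% and 18.8%) and miR-26a-5p (9.51% and 13.8%), and above it for miR-125b-5p (20% and 16.1%). The 3′UTRs of higher genes were shorter, with a median of 1260 bases against 1483 in lower and 1444 in uncalled genes. Among genes with 3′UTRs of 1000 to 2000 bases, the shares in higher and lower genes were 14% and 15.8% for miR-30a-5p, 8.41% and 11.0% for miR-26a-5p and 19.1% and 13.8% for miR-125b-5p. They were 12% and 9.97% for let-7a-5p, 6.72% and 6.37% for miR-21a-5p and 14.4% and 12.3% for miR-106b-5p. For 5 of the 14 miRNAs, miR-21a-5p and miR-106b-5p among them, the order of higher and lower genes turned within this range of lengths. For the miRNAs of heart muscle, sites of miR-499-5p (AGTCTTA) were found in 9.37% of higher and 12.7% of lower genes and those of miR-208a-3p (CGTCTTA) in 1.87% and 2.14%. In 3′UTRs of 1000 to 2000 bases these were 5.83% and 9.83% for miR-499-5p and, turned in order, 1.62% and 0.83% for miR-208a-3p, where 51 genes of all 3 kinds held a site. These shares carry no test. Higher genes also had a median GC content of 51.9% against 49.2% in lower and 48.5% in uncalled genes.

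Promoters were read for lists whose members moved together, from 250 bases before to 50 after the gene start (RefSeq, GRCm38.p6). Motifs were searched on both strands, and a gene counted once if any of its starts had a match. The SRF motif (CArG box) was found in 5 of 21 sarcomere genes with a promoter (23.8%), in 1.81% of all 27025 genes and in 1.60% of the 10366 tested protein-coding genes with a promoter. The MEF2 motif was in 4 of 21 (19%), 2.16% and 1.63% in the same order. The letters CATTCC, a TEAD core, were in 38.1% of the sarcomere promoters, 16.6% of all and 14.6% of tested genes. The E2F-like letters TTTNNCGC were in 12 of 23 replication genes (52.2%), 1 of 20 mitosis genes, 5.93% of all genes, 9.60% of tested protein-coding genes and 12.1% of genes called lower. Other lists that moved together lacked these motifs or held few. SRF and MEF2 motifs were each in 0 of 10 endothelial genes and 0 of 20 genes of fatty acid oxidation. TTTNNCGC was in 0 of 13 Hox genes and 10 of 63 cytosolic ribosomal protein genes (15.9%). A few windows of sarcomere and replication genes are printed, with 1 match in capitals and the letters 5′ to 3′ along the gene, to show what a match is. Further matches within a window, as in those of Mcm6 and Rfc3, are not marked.
Actc1 (SRF): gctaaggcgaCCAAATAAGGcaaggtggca
Myl3 (SRF): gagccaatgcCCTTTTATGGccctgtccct
Mybpc3 (MEF2): tggaatttgtCTATATTTAGcaggtggcta
Mcm6 (TTTNNCGC): ggcgtatgctTTTGGCGCgaaaagtgcgtg
Rfc3 (TTTNNCGC): cgtcgcacgcTTTCGCGCtcgcgggaaaac
They lie at chr2:114052903-114052932 (minus strand) for Actc1, chr9:110763583-110763612 (plus) for Myl3, chr2:91118044-91118073 (plus) for Mybpc3, chr1:128359796-128359825 (minus) for Mcm6 and chr5:151651199-151651228 (minus) for Rfc3. The members shown were chosen after the matches were seen. A match is a description of letters and not a bound site.

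The same contrast was available in cells given miR-106b, with no library in common. There 5644 of 14478 genes (39.0%) were called, 2730 (18.9%) higher and 2914 (20.1%) lower. Of the genes called in control cells 93.8% had the same sign, 5403 were called in the same direction and 1 in the opposite one. Across the tested genes the log2 fold changes had a Pearson r of 0.83, given as a description since genes are not independent replicates. The sizes were smaller, with a median absolute log2 fold change of 0.50 against 0.86. The polyA libraries of miR-106b cells held 2815272 to 4554848 reads, against 5692958 to 9459585 in control cells. They were also less alike, with pairwise correlations of log2 CPM of 0.948 to 0.973 against 0.987 to 0.994. How far this bears on the calls and sizes was not tested. The sarcomere median was 0.89 in miR-106b cells and 2.28 in control cells, that of endothelial genes 0.87 and 2.26, that of mitosis genes -1.25 and -2.92 and that of Hox genes -3.17 and -3.44. The median of clustered histone genes turned, at 0.13 in miR-106b cells and -1.51 in control cells. Whether these differences exceed the spread between libraries was not tested here.

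**Figure D5:**
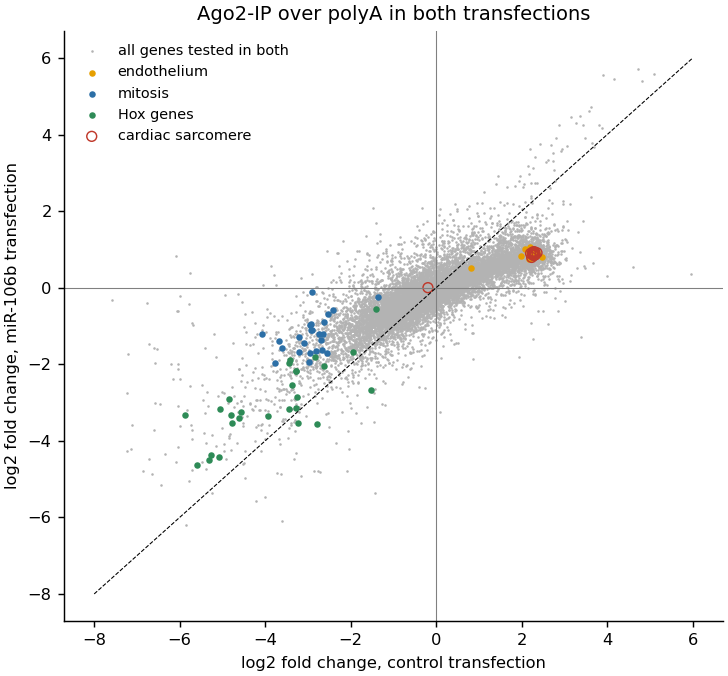
Log2 fold change of Ago2-IP over polyA RNA in control cells (x axis) and in cells given miR-106b (y axis), 1 point per tested gene, with 4 lists in colour and the dashed line at equal values. Sarcomere (red rings) and endothelial genes gather near 2.28 and 2.26 on the x axis and near 0.89 and 0.87 on the y axis, and Hox genes lie closer to the dashed line.

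The summed level of a list gave 1 value per library, and 8 such sums are given as a description with no test, since the lists were chosen with results of these data known. Summed sarcomere genes were 2.29 higher on the log2 scale and summed Hox genes -4.24 lower. The sums of kidney epithelium and of collagen and matrix differed by -0.18 (-0.11 without polyA library 4) and -0.07, and by -0.47 and -0.37 when libraries were scaled to their size alone, although the single genes of these lists moved far in both directions.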

How the data were processed

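Libraries were assigned to groups by their labels and by the column names of the count table. The authors sequenced non-strand-specific single-end libraries after chemical fragmentation, removed reads of ribosomal RNA, aligned to GRCm38 with Tophat2 (2.0.10 in the submitters' processing notes) and counted reads per gene with HTSeq. The deposited counts are whole numbers per gene, not normalized. Without strand, reads of overlapping antisense genes cannot be told apart. Gene classes and loci are those of the table, with 1 added to its start positions.

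The control libraries were scaled by TMM and fitted in edgeR 4.0.16 (R 4.3.3, limma 3.58.1) with robust quasi-likelihood F tests. The two-sided p-values of all 14478 genes were adjusted by the Benjamini-Hochberg method, with a threshold of 0.05, and fold changes used a prior count of 0.125. DESeq2 1.42.0 was an alternative. The fit was checked on simulated data. CPM are reads of a gene scaled to a common library size after TMM unless said otherwise. The miR-106b libraries were fitted separately. An exact permutation test planned for list sums is not reported, since the lists were chosen with results known. Errors are SE or SD over 4 libraries. The SE was derived as the absolute log2 fold change over the square root of the F statistic. It was not taken from the model itself. The study's methods call the replicates biological. Intervals and limits of counts cover counting error only. Deviations of same-numbered Ago2-IP and polyA libraries correlated at -0.013 to 0.035, so numbers were not treated as pairs.

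Genes were named by a rule: the 10 largest rises and falls among called genes that averaged 20 CPM or more where higher and had groups that did not overlap, genes of high level in each list and class, and genes the study names. The text gives some of these, a few genes that meet the rule are not reported here, and the miRNA hosts, list extremes and isoform partners beside them were chosen after values were seen. Members and lists were chosen with earlier results of these data known. Sequences are from RefSeq tables. Python 3.11.15 with numpy 2.4.6, pandas 2.3.3, scipy 1.17.1 and matplotlib 3.10.9 was used for the rest.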

Additional observations from a re-analysis of the deposited data

Results flagged for a closer look

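In 354 checks of groups of 4 libraries, 1 library lay apart from the other 3 in 22, where the gap to the nearest library over the group's whole range had to pass Dixon's critical value and chance gives about 1 in 20. The numbers in this section are that ratio. For list sums and classes, kidney epithelium in polyA RNA (0.893) and small nucleolar RNA in Ago2-IP RNA (0.834) were such cases, with polyA library 4 and Ago2-IP library 4 the high ones.

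Within the Ago2-IP group the ratio was 0.967 for Ppard, 0.965 for Jph2, 0.930 for Met, 0.909 for Gm23442, 0.894 for Adgrg6, 0.881 for Malat1, 0.874 for Fn1, 0.869 for Gm10800 and 0.830 for Snora57. Malat1, Gm10800, Snora57 and Gm23442 were high in Ago2-IP library 4, the library with the most small structured RNA. Met was low in library 1, and Adgrg6 was high in library 3 at 3.31 CPM.

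Within the polyA group it was 0.968 for Gm23442, 0.925 for Neat1, 0.877 for Agt, 0.871 for Gm22513, 0.870 for Cdh16, 0.860 for Calr, 0.859 for Sparc, 0.852 for Zfp651, 0.848 for Cox8a, 0.833 for Ppara and 0.830 for Irf7. PolyA library 4 was the one apart for Agt (45.8 CPM against 22.8 to 25.7), Cdh16 (225 CPM against 116 to 130), Neat1, Irf7, Zfp651, Cox8a, Sparc and Gm22513.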

How the results depend on the processing

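With a fold change of at least 2 tested against (glmTreat), 4707 genes were called, 2723 higher and 1984 lower, and in the miR-106b libraries 243, 5 higher and 238 lower, since small changes no longer count. Scaling to library size alone gave 11378 calls, 4251 higher and 7127 lower, or 37.4% higher where TMM gave 48.3%, and moved the summed lists to 1.99 (sarcomere), 1.8 (endothelium), -3.21 (mitosis), 1.27 (mitochondrial genome), -1.41 (ribosomal proteins), -0.47 (kidney epithelium) and -0.37 (collagen and matrix). Prkar1a and Tnrc6c lost their calls with that scaling. With a replicate block 10590 genes were called in control and 5232 in miR-106b libraries, and the 5S copies, Vaultrc5, Snora57 and Gm23442 lost their calls. The signs of Gnas (-0.12), Aqp1 (-0.26), Malat1 (-0.023) and Mrpl32 (-0.037) turned with library size alone, and that of Aqp1 (-0.056) with no filter on low counts. With Ago2-IP libraries 1 and 2 alone, Malat1 (-0.16), Rpph1 (-0.63), Rmrp (-1.11), Gm22513 (-0.58), Gm10800 (-1.35), Snora57 (-1.24) and Gm23442 (-0.50) turned. Gm10800 also turned with the block (-0.43). Without Ago2-IP library 4 Gm10800 (-0.98) and Malat1 (-0.093) turned, and over all 8 such fits their values ran from -0.98 to 1.10 and from -0.093 to 0.40. With 8mer sites only, the gap between lower and higher genes for miR-21a-5p turned to -0.062 points. Leaving out 1 library at a time gave 10388 to 10866 calls in control and 4517 to 5734 in miR-106b libraries. Other settings left between 8560 and 11261 calls in the control comparison, 8560 where a gene needed 10 counts in every library, which left 2 of the Hox genes called. Hox genes were not alone, as 33 of 68 counts of list members called moved in at least 1 setting besides leaving out a library. Causes of these shifts were not tested beyond the construction of each setting.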
